A study of Mus musculus with 15 samples.

Results

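The core clock genes examined here are Clock, Arntl, Per1, Per2, Per3, Cry1, Cry2, Nr1d1, Nr1d2 and Dbp. They were chosen by name, as the probes whose RefSeq identifier maps to 1 of these 10 symbols, and 11 of the 55681 probes on the array met this rule. Each gene had 1 probe except Dbp, which had 2. Of the 10 genes, 9 were measured well enough to be tested among 22557 genes. The Cry1 probe was well above background on 2 of 15 arrays (BLD 3 and BLD 4) and was not tested.

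The samples were left hemibrains of male C57BL/6j mice. The mice entered the study at 3 weeks of age and stayed on 1 of 3 diets of equal caloric content for 24 weeks, and what set the diets apart was how much n-3 they held for each part of n-6 polyunsaturated fat. The enriched diet (ERD) had an n-3 to n-6 ratio of 7 to 1, the balanced diet (BLD) 1 to 1 and the standard laboratory diet (STD) 1 to 6, with 5 arrays each. On every array the hemibrain RNA was labelled with Cy5 and a reference pool of 11 mouse cell lines with Cy3, so each value is a log2 ratio of hemibrain to reference. No animal carried a transgene or another treatment per the labels. Arrays are numbered within a diet only to name them. The labels do not state outright that each sample is a separate animal, and p-values measure the spread between these samples. The time of day at which brains were taken is not given in the sources used here. In a whole hemibrain, fewer cells of a type and less RNA per cell cannot be told apart.

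The mammalian clock is a loop of transcription factors that runs with a period of about a day in nearly every cell. CLOCK and BMAL1, the protein of Arntl, bind together at E-box sequences and switch on the Per and Cry genes, whose proteins return to the nucleus and repress them. The same activators switch on Nr1d1 and Nr1d2, which encode the nuclear receptors REV-ERB alpha and REV-ERB beta and repress Arntl, and Dbp, a PAR bZIP factor that acts on D-box sequences. Arntl is thus at its peak when Dbp and the REV-ERB genes are near their trough, and the transcripts of a brain sample depend on the hour of collection. The suprachiasmatic nucleus of the hypothalamus sets the phase of the rest of the brain and body.

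The promoter windows of 4 members are shown as examples of the letters through which the loop is known to act. Per1 and Nr1d2 are among them because they had the widest differences between ERD and STD. Windows of Arntl, Clock, Cry1 and Cry2 also held matches and are not shown. Each window runs from 250 bases before to 50 bases after a RefSeq start site (build GRCm38.p6) and is written along the gene's strand. Capitals mark matches to 1 of 5 motifs on either strand. The motifs were the E-box CACGTG, the E′-box CACGTT, the D-box TTANGTAA, the cAMP response element TGACGTCA and the REV-ERB half-site AGGTCA. None of these letter strings holds another, although the half-site can overlap the response element. The windows lie at chr11:69098699-69098998 (plus strand) for the upstream start of Per1, chr4:151044616-151044915 (minus strand) for Per3, chr11:98775328-98775627 (minus strand) for Nr1d1 and chr14:18239057-18239356 (minus strand) for Nr1d2.
Per1: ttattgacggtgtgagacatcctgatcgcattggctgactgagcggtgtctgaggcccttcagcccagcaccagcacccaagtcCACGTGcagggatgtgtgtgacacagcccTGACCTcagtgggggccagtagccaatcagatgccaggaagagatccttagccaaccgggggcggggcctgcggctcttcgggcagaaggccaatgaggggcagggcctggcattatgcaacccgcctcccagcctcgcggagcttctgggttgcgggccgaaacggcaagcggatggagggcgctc
Per3: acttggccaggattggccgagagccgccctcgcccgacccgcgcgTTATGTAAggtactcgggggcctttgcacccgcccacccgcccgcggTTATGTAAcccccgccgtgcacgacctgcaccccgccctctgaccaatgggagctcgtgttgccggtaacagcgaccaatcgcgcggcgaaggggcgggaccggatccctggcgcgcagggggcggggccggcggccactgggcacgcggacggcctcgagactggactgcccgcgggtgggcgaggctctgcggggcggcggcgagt
Nr1d1: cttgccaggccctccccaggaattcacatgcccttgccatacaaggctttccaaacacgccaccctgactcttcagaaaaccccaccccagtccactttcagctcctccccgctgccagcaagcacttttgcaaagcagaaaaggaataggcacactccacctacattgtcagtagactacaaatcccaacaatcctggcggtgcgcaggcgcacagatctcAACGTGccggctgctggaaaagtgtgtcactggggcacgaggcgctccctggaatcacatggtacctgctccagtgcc
Nr1d2: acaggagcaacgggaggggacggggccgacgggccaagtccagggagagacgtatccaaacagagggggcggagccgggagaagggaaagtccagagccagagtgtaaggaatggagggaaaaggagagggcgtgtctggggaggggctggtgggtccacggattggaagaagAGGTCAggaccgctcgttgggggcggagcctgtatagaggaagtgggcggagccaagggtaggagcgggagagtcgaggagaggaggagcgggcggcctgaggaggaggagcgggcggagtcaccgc

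In Per1 the capitals are an E-box starting 166 bases before the start site and a half-site, on the opposite strand, 137 bases before it. Per3 holds the same D-box letters at 205 and at 158 bases before the start. Nr1d1 holds an E′-box 28 bases before the start, and Nr1d2 a half-site 77 bases before it. RefSeq gave 13 windows for 9 of the 10 members. An E-box was found in 2 of these 13 windows (of Per1 and Cry1), against 7.15% of all 32851 windows. An E′-box was found in 3 of 13 (of Cry1, Cry2 and Nr1d1), against 4.68%. The D-box was found in 1 of 13 (of Per3), against 2.32%. The half-site was found in 4 of 13 (of Arntl, Clock, Nr1d2 and Per1), against 16.3%, and the response element in 0 of 13, against 1.79%. These matches describe letters in short windows, and the arrays measured no binding.

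Array quality differed between libraries. The number of spots well above background in Cy5 ran from 17720 (ERD 1) to 31991 (BLD 4), and ERD 1, BLD 3 and ERD 4 were the arrays least correlated with the others (median r across genes 0.88, 0.911 and 0.914). The arrays came from 8 slides and 2 days of scanning, with BLD 2, BLD 3, BLD 4 and ERD 4 on the later day. Neuronal transcripts marked the tissue as brain, with Syt1, a synaptic vesicle calcium sensor, at a mean log2 ratio of 8.55 ± 0.22 (SD, n = 5) over the reference in STD. Of 8 suprachiasmatic markers 6 were measured, and Six6 and Nms were not. Detection of some members differed between arrays too. Per2, Nr1d1 and Nr1d2 were well above background on all arrays but ERD 1. Per3 was so on 4 of 5 STD, 3 of 5 BLD and 2 of 5 ERD arrays, and the other tested members on all 15. Per3 did not follow the spot counts. It was not well above background on BLD 3 (29812 spots) and ERD 2 (28117), and was on ERD 3 (24048).

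No clock gene passed the test between any pair of diets. In limma with Benjamini-Hochberg adjustment over all genes, 0 of 9 members had an adjusted p under 0.05 in ERD against STD, where 0.217% of all genes did. The count was also 0 of 9 in BLD against STD (0.00887% of all genes), in ERD against BLD (0% of all genes) and in the F test over the 3 diets (0.0488%). At an unadjusted p under 0.05 there were 2 members in ERD against STD (Per1 and Nr1d2), 1 in BLD against STD (Cry2) and 2 in ERD against BLD (Nr1d2 and Dbp). The corresponding shares of all genes were 14.6%, 10.8% and 10.4%. No member had arrays of one diet lying wholly above or below those of another, which 3.78%, 2.89% and 1.37% of all genes did in the 3 comparisons. The members' shares at an unadjusted p are counts of at most 2 in 9 and were not tested against those of all genes.

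**Figure D1:**
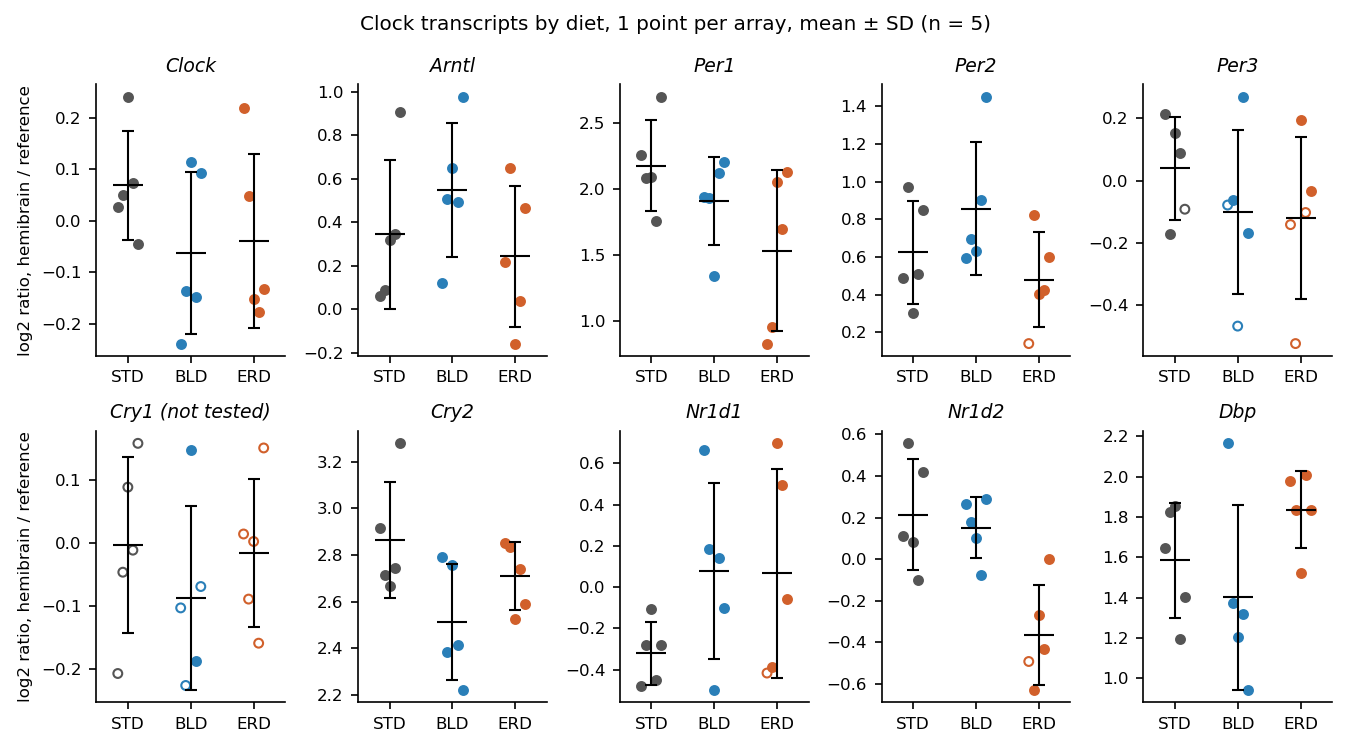
Log2 ratio of hemibrain to reference (y axis) for the 10 clock genes on the 15 arrays, grouped by diet (x axis). Each point is 1 array, open where the spot was not well above background in Cy5, and bars are the mean ± SD (n = 5). The ERD arrays of Nr1d2 sit between -0.63 and 0.00 and those of STD between -0.10 and 0.56, and in every panel the diets overlap.

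Nr1d2, which encodes REV-ERB beta, had the lowest p of the members. Its log2 ratios were -0.49, -0.63, -0.27, -0.43 and 0.00 on ERD 1 to ERD 5. They were 0.26, 0.18, 0.10, -0.08 and 0.29 on BLD 1 to BLD 5. They were 0.11, 0.56, 0.08, -0.10 and 0.42 on STD 1 to STD 5. The 4 arrays ERD 1 to ERD 4 thus lay below all BLD and STD arrays, and ERD 5 lay among them, above BLD 4 and STD 4. The mean was -0.36 ± 0.24 in ERD, 0.15 ± 0.15 in BLD and 0.21 ± 0.27 in STD (SD, n = 5 each). ERD minus STD was -0.58 ± 0.14 (SE, 95% interval -0.88 to -0.27), a level of 0.67-fold, with an unadjusted p of 0.00108 and an adjusted p of 0.109 in limma. ERD minus BLD was -0.52 ± 0.14 (adjusted p = 0.33 in limma), and BLD minus STD was -0.06 ± 0.14 (adjusted p = 0.897). Among the 22557 genes Nr1d2 ranked 223 by p in ERD against STD and 178 in ERD against BLD.

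The size of the Nr1d2 difference depended on the background correction and on ERD 1, whose spot was not well above background. ERD minus STD was -1.04 with a background offset of 1 (adjusted p = 0.0931 in limma) and -1.29 in the deposited log ratios, turned to log2 (adjusted p = 0.155). ERD minus BLD was -0.83 and -1.18 under the same settings. Without ERD 1, in a pair of fits added after seeing the data, ERD minus STD was -0.86 with the offset of 1 and -0.76 in the deposited log ratios (adjusted p = 0.13 and 0.187 in limma), and ERD minus BLD was -0.64 and -0.65. The hemibrain channel alone gave -0.54 for ERD minus STD, while the same reference RNA in Cy3 differed by 0.05 at this probe. Within the slides that held both diets, ERD minus STD was -1.19 on slide 4, -0.38 on slide 5 and 0.10 on slide 7, each from 1 array a diet. Within the earlier scan day it was -0.56, from 4 ERD and 5 STD arrays. Leaving out 1 array at a time gave values from -0.67 to -0.49, with the lowest adjusted p, 0.0621 in limma, without ERD 5.

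Nr1d1, the gene of REV-ERB alpha, had its lowest diet mean in STD, where Nr1d2 had its highest. Its log2 ratios on the STD arrays were -0.48, -0.28, -0.10, -0.45 and -0.28, with an SD of 0.15. On the ERD arrays they were -0.42, -0.38, 0.70, 0.50 and -0.06 (SD 0.51), and on the BLD arrays 0.66, 0.19, -0.50, 0.14 and -0.10 (SD 0.42). The STD arrays lay close together near the bottom of the range, and the other diets each held arrays at that level and arrays well above it. ERD minus STD was 0.39 ± 0.23 (SE, adjusted p = 0.448 in limma), BLD minus STD 0.40 ± 0.23 (adjusted p = 0.517), and ERD minus BLD -0.01 ± 0.23. ERD minus STD was 0.23 without ERD 3 and 0.24 in the hemibrain channel alone. BLD minus STD was 0.25 without BLD 1 and 0.13 in the hemibrain channel alone. In Cy3, the same reference RNA differed at this probe by -0.26 in BLD minus STD. It differed by 0.25 in ERD minus BLD and by -0.01 in ERD minus STD. Whether the spread differed between diets was not tested.

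Among the Per and Cry genes, whose proteins form the repressor complex, Per1 had the widest diet difference in the limma fit. Its log2 ratios were 0.83, 0.95, 2.05, 1.70 and 2.13 on ERD 1 to ERD 5. They were 1.94, 1.93, 1.34, 2.12 and 2.20 on the BLD arrays and 2.25, 2.08, 2.09, 1.75 and 2.69 on the STD arrays. ERD 1 and ERD 2 stood below all other arrays, and ERD 3, ERD 4 and ERD 5 lay within the range of the BLD arrays. ERD minus STD was -0.64 ± 0.26 (SE, 95% interval -1.20 to -0.09), with an unadjusted p of 0.0248 and an adjusted p of 0.273 in limma. With slide as a block the value was -0.32, and with arrays weighted by their quality -0.36. It was -0.47 without ERD 1. On slides 4, 5 and 7 it was -1.13, -0.20 and 0.38, and within the earlier scan day -0.69. In the deposited log ratios it was -0.59, a narrower difference than the -1.17 of Per3 there.

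Per2 was at 0.48 ± 0.25 in ERD, 0.86 ± 0.35 in BLD and 0.62 ± 0.28 in STD (SD, n = 5), and BLD 5, at 1.45, was its highest array. ERD minus BLD was -0.38 ± 0.18 (SE, unadjusted p = 0.0535, adjusted p = 0.484 in limma), and it was -0.69 in the deposited log ratios and -0.19 in the hemibrain channel alone. Without BLD 5 it was -0.23. Per3 was near the background of the array and its means ranged from -0.12 ± 0.26 in ERD to 0.04 ± 0.16 in STD. Its 95% intervals allowed log2 differences between -0.47 and 0.30 over the 3 comparisons, and these hold for the limma fit with an offset of 50 only. In the deposited log ratios ERD minus STD was -1.17 and BLD minus STD -0.86, and with an offset of 1 they were -0.84 and -0.66.

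Cry2, a cryptochrome repressor, had the most negative BLD minus STD value of the members in the limma fit. Its log2 ratios were 2.79, 2.38, 2.75, 2.41 and 2.22 on the BLD arrays and 2.92, 2.72, 2.67, 2.74 and 3.28 on the STD arrays. On the ERD arrays they were 2.85, 2.83, 2.53, 2.74 and 2.59. BLD 2, BLD 4 and BLD 5 lay below all STD and ERD arrays and the remaining BLD arrays lay among them. BLD minus STD was -0.35 ± 0.14 (SE, 95% interval -0.65 to -0.05, unadjusted p = 0.0256, adjusted p = 0.441 in limma). It was -0.06 with arrays centred on their median in place of loess and -0.22 in the hemibrain channel alone. ERD minus BLD was 0.20, and -0.17 with median centring.

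Cry1, the other cryptochrome gene, gave log2 ratios between -0.23 and 0.16 over all 15 arrays. These sit at the background of the array, so no diet difference could be read from this probe.

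Clock, the activator with histone acetyltransferase activity, differed by at most 0.13 in size between diets in the limma fit. It was at -0.04 ± 0.17 in ERD, -0.06 ± 0.16 in BLD and 0.07 ± 0.11 in STD (SD, n = 5). Its 95% intervals ran from -0.34 to 0.12 for ERD minus STD, from -0.36 to 0.10 for BLD minus STD and from -0.21 to 0.26 for ERD minus BLD. With a background offset of 1, BLD minus STD was -0.36 and ERD minus STD -0.23. Arntl, the gene of its partner BMAL1, was at 0.24 ± 0.32, 0.55 ± 0.31 and 0.34 ± 0.34 in the same order. Its arrays spread from -0.16 (ERD 3) to 0.98 (BLD 5), and STD 5, at 0.91, stood well above the other STD arrays, which lay between 0.06 and 0.35. ERD minus BLD was -0.31 ± 0.19 (SE, adjusted p = 0.594 in limma) and -0.20 without BLD 5, and the differences from STD were -0.10 for ERD and 0.21 for BLD.

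**Figure D2:**
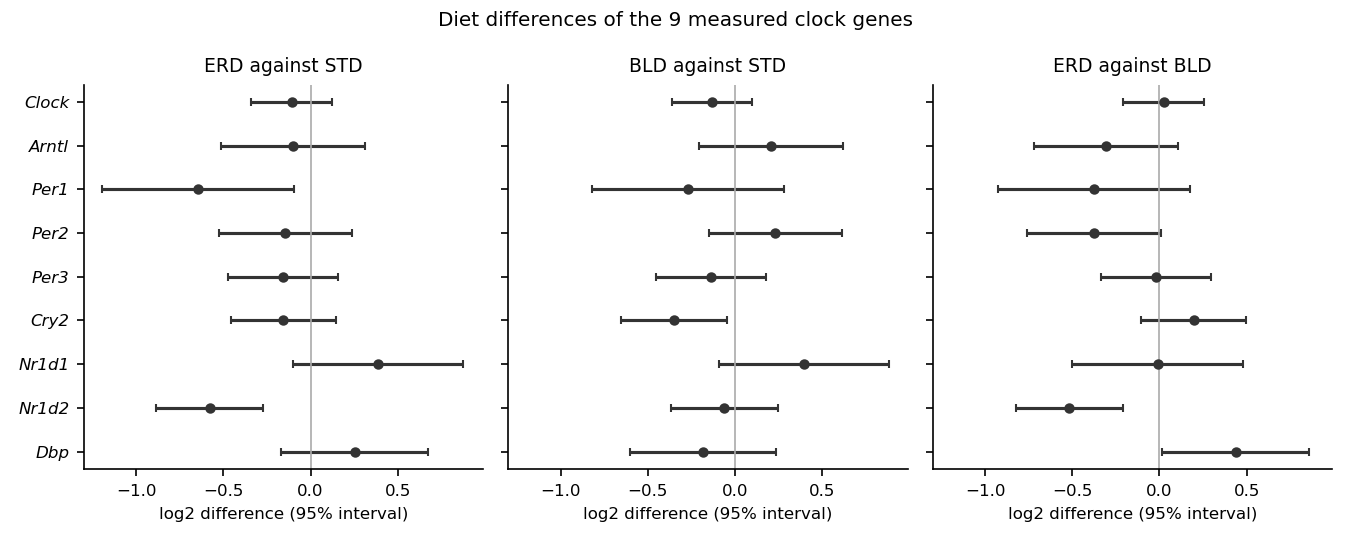
Log2 difference between diets (x axis) for the 9 measured clock genes (y axis) in the 3 comparisons, with 95% intervals from limma. Unadjusted intervals leave out 0 for Per1 and Nr1d2 in ERD against STD, for Cry2 in BLD against STD and for Nr1d2 and Dbp in ERD against BLD, and no adjusted p is under 0.05.

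Dbp, the output gene of the loop, was read by a pair of probes that did not track each other closely. The tested probe, the brighter of the pair, gave 1.98, 1.83, 1.52, 2.01 and 1.84 on the ERD arrays. It gave 2.17, 1.37, 1.20, 1.32 and 0.94 on the BLD arrays and 1.64, 1.83, 1.85, 1.19 and 1.40 on the STD arrays. The BLD arrays held both the highest value (BLD 1) and the lowest (BLD 5), and the ERD arrays lay in the upper part of the range. ERD minus BLD was 0.44 ± 0.20 (SE, unadjusted p = 0.0428, adjusted p = 0.473 in limma), and it was -0.02 with median centring in place of loess and 0.28 without the 3 least correlated arrays. ERD minus STD was 0.25 ± 0.20 and BLD minus STD -0.18 ± 0.20.

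The other Dbp probe gave means of 1.05 ± 0.35 in ERD, 0.81 ± 0.22 in BLD and 0.52 ± 0.35 in STD (SD, n = 5). ERD minus STD at this probe was 0.53 ± 0.19 (SE), with an unadjusted p of 0.0138 in limma, and BLD minus STD was 0.28 ± 0.19. Both probes thus had their highest mean in ERD, and they placed BLD on opposite sides of STD. After each diet's mean was taken out, the probes correlated with r = 0.28 and rho = 0.20 over 15 arrays (within-diet permutation p = 0.28 and 0.496). Without ERD 5 and STD 2, the arrays farthest from the median at the other probe, r was 0.26. BLD 1, the array farthest from the median at the tested probe, was kept in that value.

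**Figure D3:**
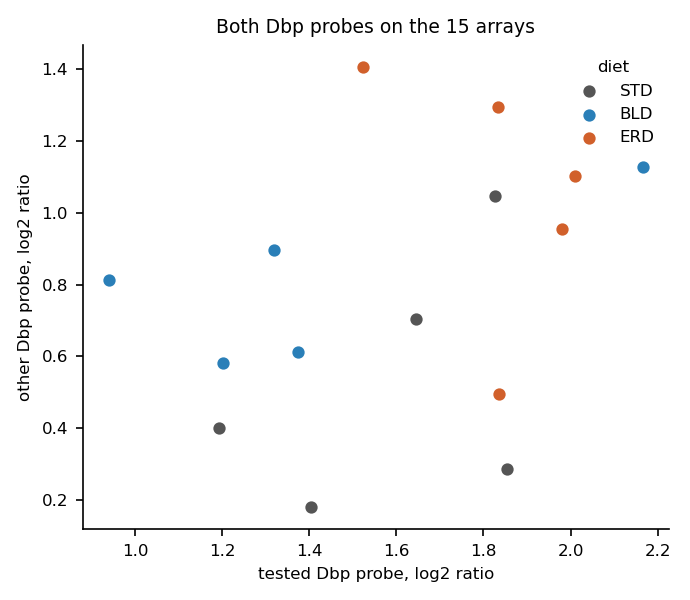
Log2 ratio at the other Dbp probe (y axis) against the tested Dbp probe (x axis) on the 15 arrays, coloured by diet. BLD 1 is the array furthest to the right, at 2.17, and the points form no tight line (r = 0.28 with the diet means taken out).

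Set side by side, the limbs of the loop had median differences of both signs. In ERD against STD the 2 activators had a median log2 difference of -0.10, the 4 measured Per and Cry genes -0.16 (4 of 4 below 0) and the REV-ERB pair -0.10, while Dbp was at 0.25. The REV-ERB pair went opposite ways there, with Nr1d1 at 0.39 and Nr1d2 at -0.58. In BLD against STD the medians were 0.04, -0.20, 0.17 and -0.18, and in ERD against BLD -0.14, -0.20, -0.26 and 0.44. Limbs also held both signs in these comparisons. In BLD against STD Clock was at -0.13 and Arntl at 0.21, Nr1d1 at 0.40 and Nr1d2 at -0.06, and Per2 at 0.23. In ERD against BLD Clock was at 0.02, Arntl at -0.31 and Cry2 at 0.20. The Dbp values are of its tested probe. For Dbp, BLD minus STD was 0.28 at the other probe and 0.0492 for the mean of its probes. Over all 9 members the median was -0.15 in ERD against STD (7 of 9 below 0), -0.13 in BLD against STD (6 of 9) and -0.02 in ERD against BLD (6 of 9). The medians of all genes were 0.02, 0.05 and -0.04, with 47%, 39.5% and 58% of genes below 0. The mean over the members varied between arrays of a diet by a pooled SD of 0.11, and with median centring BLD against STD stood at 0.10 with 2 of 9 below 0. The comparisons share their diets' arrays and are therefore not independent of each other.

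**Figure D4:**
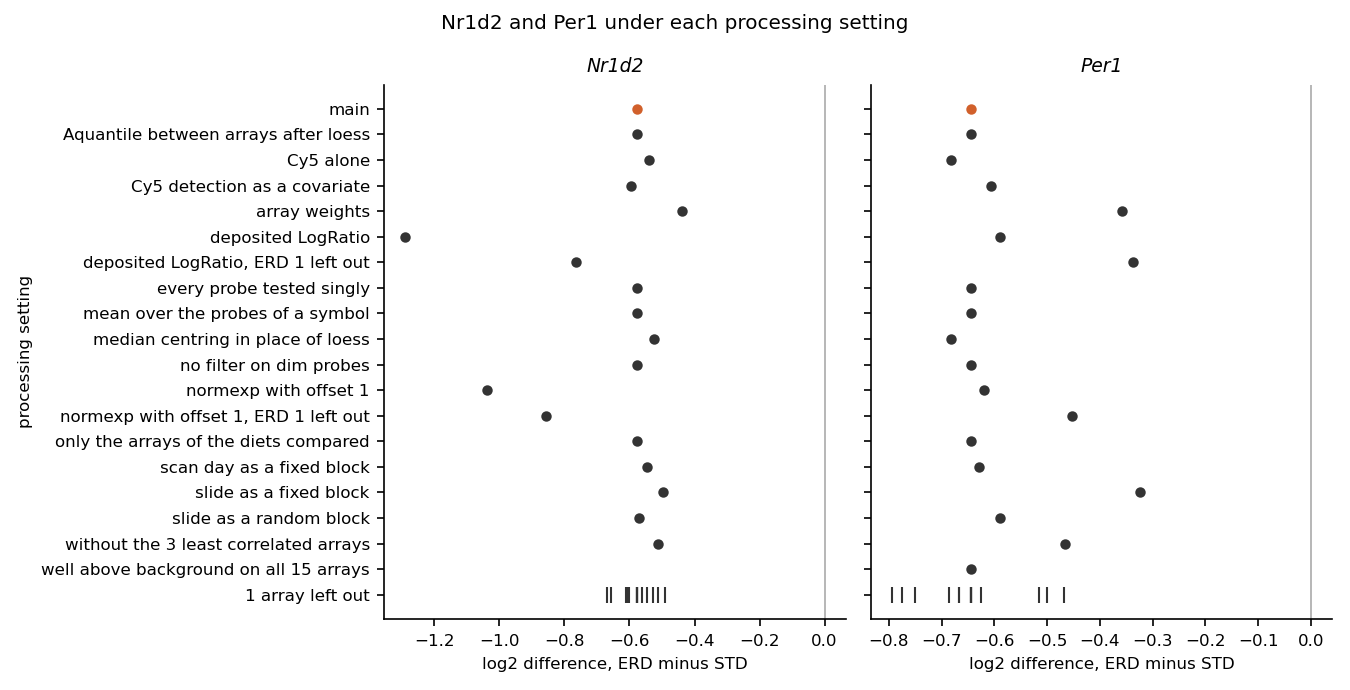
Log2 difference between ERD and STD (x axis) for Nr1d2 and Per1 under each processing setting (y axis), with the reported value in orange and ticks for each array left out in turn. All values lie below 0, from -1.29 to -0.44 for Nr1d2 and from -0.79 to -0.32 for Per1, and no adjusted p is under 0.05.

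With the diet means taken out, none of the 36 pairs of members correlated past the threshold across the 15 arrays (within-diet permutation test, Benjamini-Hochberg over the 36 pairs). By Pearson's r 5 pairs had an unadjusted p under 0.05, and by Spearman's rho 4 did. Clock and Nr1d1 gave r = -0.71 and rho = -0.74 (permutation p = 0.0162 and 0.00921, adjusted p = 0.302 and 0.265). Their r was -0.54 without BLD 3 and ERD 1, -0.62 within the earlier scan day and -0.21 with median centring. Clock and Per1 gave r = -0.67 and rho = -0.68 (permutation p = 0.0195 and 0.0147, adjusted p = 0.302 and 0.265), with r = -0.44 without the same arrays, -0.61 within the earlier scan day and -0.03 with median centring. The relations of Clock to Nr1d1 and to Per1 thus shrank when the arrays were scaled by their median.

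Per1 and Nr1d2, both targets of the activators, gave r = 0.61 and rho = 0.57 (permutation p = 0.0301 and 0.0467, adjusted p = 0.302 and 0.42). Their r was 0.53 without ERD 1 and ERD 2, 0.73 within the earlier scan day and 0.63 with median centring. Arntl and Nr1d1, its repressor, gave r = -0.58 and rho = -0.60 (permutation p = 0.0358 and 0.0318, adjusted p = 0.302 and 0.382), and r was -0.73 without BLD 5 and STD 5. It was -0.59 within the earlier scan day and -0.30 with median centring. Arntl and Per2 gave r = 0.56 and rho = 0.37 (permutation p = 0.0471 and 0.211, adjusted p = 0.302 and 0.509), and r was 0.32 without BLD 5 and STD 5. Arntl and Dbp, which are in opposite phase in the textbook loop, gave r = -0.50 and rho = -0.49 (permutation p = 0.0781 and 0.0873, adjusted p = 0.312 and 0.462). By r, Per1 with Nr1d1, Per3 with Nr1d1 and Per1 with Per3 had a lower permutation p than this pair (0.0654, 0.0662 and 0.067). The later scan day held 4 arrays, too few for a value of its own.

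**Figure D5:**
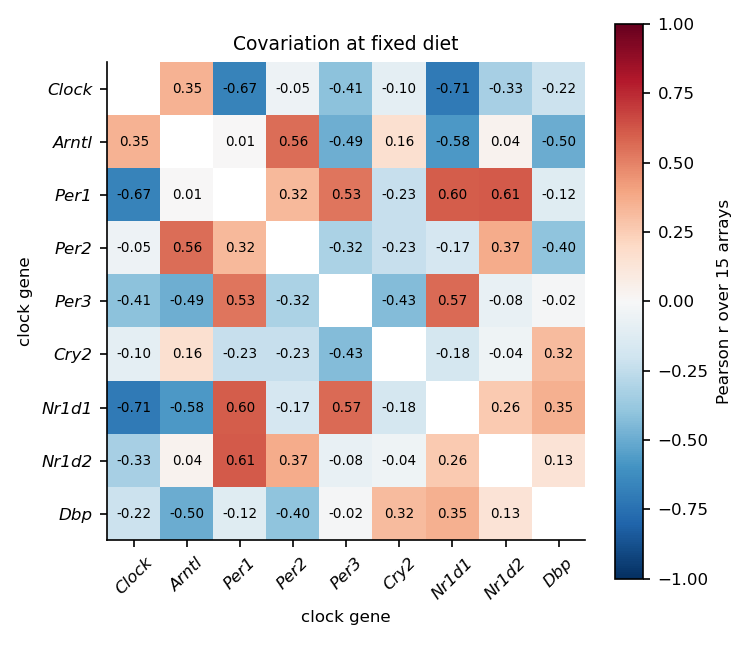
Pearson's r between the log2 ratios of the 9 measured clock genes over 15 arrays after each diet's mean was subtracted, with the gene pair on the axes and r as colour. The lowest value is -0.71 (Clock with Nr1d1) and the highest 0.61 (Per1 with Nr1d2), and no pair passes the adjusted threshold.

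The genes whose array pattern was most like that of Dbp's tested probe, by diet-centred r over 15 arrays among 13664 genes with a symbol, were not clock genes. They were Celf5 (r = 0.87), Eif3j1 (0.87), Mcf2l, Mga, Mrpl38, Nos1ap, Sh3glb2, Tmem72, D430019H16Rik and Olfr54 (0.81). The most opposed were Hnrnpc (-0.84), Sar1a, Nup85, Car5a and Crybb1 (-0.81). Among the members, Nr1d1 came nearest to Dbp at r = 0.35 (rank 1910) and Arntl stood at -0.50 (rank 13129). Of the clock-linked genes outside the members that were looked up, Rbm3 came nearest to Dbp at r = 0.67 (rank 133). Usp2 was the most opposed of them, at -0.54 (rank 13304).

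For Arntl the most like genes were Selenbp1 (r = 0.95), Tspyl3, Ebpl, Cnpy2, Pepd, Plxnd1, Klhl25, Ubtd2, Nol11 and Rpp21 (0.92). The most opposed were Ddit3 (-0.93), Flna, Nek1, Mars1 and Helz2 (-0.88). Per2 was the member most like Arntl, at r = 0.56 (rank 1221), and Nr1d1 the most opposed, at -0.58 (rank 13078). Of the clock-linked genes outside the members that were looked up, Usp2 was most like Arntl, at r = 0.73 (rank 341). Bhlhe41 was the most opposed of them, at -0.61 (rank 13264). All these correlations come from the same 15 arrays, which share depth and scaling, and they are given as a description.

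Other genes of the clock were described from lists of 31 genes, of which 27 were measured. None passed the test in limma in any comparison (0 of 27, against 0.217%, 0.00887% and 0% of all genes), and at an unadjusted p under 0.05 there were 5, 2 and 5 of 27, where 14.6%, 10.8% and 10.4% of all genes did. Their median log2 difference was -0.13 in ERD against STD (18 of 27 below 0), 0.04 in BLD against STD (11 of 27) and -0.16 in ERD against BLD (21 of 27). The shares of all genes below 0 were 47%, 39.5% and 58%. Without ERD 1 the first median was -0.09 (16 of 27). The second was -0.06 (18 of 27) with an offset of 1, -0.07 (16 of 27) in the deposited log ratios and -0.01 (16 of 27) in the hemibrain channel alone, so its sign was not settled.

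The 9 measured kinases, phosphatases and ubiquitin ligases, which set the stability of PER and CRY proteins, had the lowest median of these lists in ERD against STD. It was -0.32 with 8 of 9 below 0, and -0.26 with 9 of 9 below 0 in ERD against BLD, where 47% and 58% of all genes were below 0. In BLD against STD it was 0.09 with 4 of 9 below 0 (39.5% of all genes), but -0.15 (6 of 9) with an offset of 1 and -0.21 (5 of 9) in the deposited log ratios. Their mean centred level ran from -0.44 (ERD 1) to 0.02 (ERD 5) in ERD, from 0.05 to 0.21 in BLD and from 0.01 to 0.18 in STD. Every ERD array but ERD 5 lay below all arrays of the other diets, and without ERD 1 the median of ERD minus STD was -0.21. Csnk1a1, the casein kinase 1 alpha gene, was at -0.55 in ERD minus STD (unadjusted p = 0.00729, adjusted p = 0.194 in limma). Fbxw11, whose F-box protein binds phosphorylated PER, was at -0.32 in ERD minus STD (adjusted p = 0.316) and -0.46 in ERD minus BLD (adjusted p = 0.351 in limma).

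Among the 7 other outputs, Tef, a PAR bZIP factor related to Dbp, was at -0.46 in ERD minus STD and -0.59 in BLD minus STD (unadjusted p = 0.0097 and 0.00155, adjusted p = 0.211 and 0.259 in limma). Its means were 1.88 ± 0.14 in ERD, 1.74 ± 0.24 in BLD and 2.33 ± 0.32 in STD (SD, n = 5), so both other diets had a mean below that of STD. With median centring BLD minus STD was -0.24. Prok2, a secreted output of the suprachiasmatic nucleus, was at -0.20 in ERD minus STD (adjusted p = 0.403 in limma) and -1.65 in the deposited log ratios. Its spot was well above background on 5 of 5 STD, 4 of 5 BLD and 2 of 5 ERD arrays. Both values thus rest partly on ERD spots near background. Among the 6 other repressors and modulators, Nono, a partner of the PER proteins, was at -0.50 in ERD minus BLD (adjusted p = 0.46) and -0.28 without the 3 least correlated arrays, and Nfil3, the repressor at D-boxes, at -0.34 in ERD minus STD (adjusted p = 0.395).

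Of the 3 other activators measured, Rorb, a nuclear receptor, was at -0.08 in ERD minus STD (adjusted p = 0.89 in limma) and 0.11 without ERD 1. Cirbp, a cold-inducible RNA-binding protein, was at 0.38 in ERD minus STD (adjusted p = 0.321 in limma), and Rbm3, its relative, at -0.21. Rgs16, a regulator of G-protein signalling in the suprachiasmatic nucleus, was at 0.44 in BLD minus STD (adjusted p = 0.405 in limma), but 0.16 in the hemibrain channel alone. Lhx1, a transcription factor of the same nucleus, was well above background on 0 of 5 STD, 3 of 5 BLD and 2 of 5 ERD arrays.

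Of 42 measured markers of neurons, glia, vessels, choroid plexus, cerebellum and blood, 0 passed the test in any comparison in limma, where 0.217%, 0.00887% and 0% of all genes did. At an unadjusted p under 0.05 there were 10, 8 and 8 of 42 in the 3 comparisons, against 14.6%, 10.8% and 10.4% of all genes. Their list medians in ERD minus STD were -0.22 for neurons, -0.08 for astrocytes, -0.25 for oligodendrocytes, -0.17 for microglia, -0.30 for endothelium, -0.16 for choroid plexus, -0.07 for cerebellum and -0.05 for blood. Markers within a list went both ways, from -0.84 to 1.04 among astrocyte markers and from -0.65 to 1.38 among neuron markers. In the deposited log ratios these ran from -0.51 to 0.63 and from -0.33 to 1.30. The astrocyte median was 0.03 with an offset of 1, and those of cerebellum and blood were 0.14 and 0.13 in the hemibrain channel alone. List medians ran from -0.17 (microglia) to 0.40 (blood) in BLD minus STD and from -0.84 (blood) to 0.02 (astrocytes) in ERD minus BLD. In the deposited log ratios the blood median was -0.54 in BLD minus STD and -0.04 in ERD minus BLD. The cerebellum median in BLD minus STD was -0.60 there, against 0.27 in the limma fit. In ERD minus BLD the deposited log ratios gave 0.16 for neurons, 0.10 for oligodendrocytes, 0.22 for microglia and 0.46 for cerebellum. These medians were below 0 in the limma fit. Astrocytes were then at 0.67, choroid plexus at 0.22 and endothelium at -0.49. The mean centred level of the 5 endothelial markers was -0.63 on ERD 1 and between -0.23 and 0.38 on all other arrays. That of the 3 measured blood markers was between -0.43 and -0.22 in ERD, between -0.31 and 1.00 in BLD and between -0.35 and 0.10 in STD. The part of these markers in the clock values was not tested.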

How the data were processed

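Hemibrain RNA was measured on 15 Agilent 2-colour arrays, 5 per diet, with no dye swap, so a dye effect shared by all arrays was not estimated. The diet label of each sample sets its group, because every title says control. The deposited scanner files hold median spot and background intensities of each channel, per the file headers, and log10 ratios of Cy5 over Cy3 after the scanner software's background subtraction and dye normalization. The authors' series values equal these log10 ratios. Per the file headers the scanner software was Agilent Feature Extraction 11.5.1.1, and version 10.7 per the submitters' processing notes. Precision is limited by the number of arrays, with a median SE of 0.163 for a log2 difference.

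Intensities were background-corrected (normexp, offset 50) and loess-normalized within arrays in limma 3.58.1 (R 4.3.3, with version 1.17.8 of the package data.table). Outlier spots (0.574%) were left out. Probes above background in Cy5 on at least 5 arrays with at least 8 values were kept, and the brightest probe stood for each symbol. This left 22557 genes, 13763 of them with a symbol. A single model over 15 arrays (12 residual degrees of freedom) gave 2-sided tests with Benjamini-Hochberg adjustment at 0.05. Pair correlations used 100000 permutations within diets (Python 3.11.15, NumPy 2.4.6, SciPy 1.17.1, pandas 2.3.3), with plots made in matplotlib 3.10.9. Intervals are at 95% confidence and unadjusted.

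The members and lists were chosen with earlier results of these data known. The text names all 10 members, called genes of each other clock list or else its 2 genes of lowest F-test p (Fbxw11 and Csnk1a1 among the kinases, for example), and the 10 most like and 5 most opposed genes of Dbp and Arntl. The most like and most opposed of the other clock-linked genes looked up are named as well. Cell type markers are given by counts, medians and ranges, and Syt1 describes the tissue. The value of 1 gene is not reported here. The diet differences of the members were recomputed under other normalizations, background corrections, filters and probe summaries, and with the Cy5 channel by itself. They were also recomputed with slide or scan day as a block, with array weights, and with each array left out. Pair correlations and the other gene lists were recomputed under some of these settings. The likeness to Dbp and Arntl and the fit of the other Dbp probe are given for the processing described above only. The number of spots above background in Cy5, as a covariate, and the background alternatives without ERD 1 were added after seeing the data. On simulated arrays the ERD against STD comparison recovered 18%, 80%, 96% and 94% of 50 genes changed by log2 0.5, 1, 1.5 and 2.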

Additional observations from a re-analysis of the deposited data

How the results depend on the processing

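None of the 9 members passed the adjusted threshold in limma in any of 33 alternative settings, as far as each applied to it, and the lowest adjusted p reached was 0.0621 (Nr1d2, ERD against STD, without ERD 5). Of the 27 differences between diets, 15 kept their sign in every setting and 12 did not. With median centring in place of loess the median of all genes moved from 0.05 to 0.18 in BLD against STD and from -0.04 to -0.20 in ERD against BLD, with 19.1% and 83.3% of genes below 0 in place of 39.5% and 58%. Under it the median of the members was 0.10 in BLD against STD and -0.26 in ERD against BLD. It also gave -0.0911 for Clock, -0.17 for Cry2 and -0.0159 for Dbp in ERD minus BLD, 0.15 for Dbp, 0.10 for Nr1d2, 0.0714 for Per1 and 0.0502 for Per3 in BLD minus STD, and 0.04995 for Per3 in ERD minus STD. With slide as a block the median in BLD against STD was 0.11. Single values were then 0.18 for Arntl and 0.0305 for Per2 in ERD minus STD, 0.13 for Nr1d2 and 0.11 for Per1 in BLD minus STD, and 0.0814 for Per3 in ERD minus BLD. With scan day as a block Clock was at -2.34e-05 in ERD minus BLD and Nr1d2 at 0.0341 in BLD minus STD. Cy5 alone gave -0.0055 for Clock and 0.11 for Nr1d1, and array weights -0.0084 and 0.0936, in ERD minus BLD. An offset of 1 gave 0.0477 for Nr1d1 in ERD minus BLD, and the mean of the Dbp probes 0.0492 in BLD minus STD. The median of the members in ERD against BLD was -0.31 in the deposited log ratios, -0.18 with an offset of 1 and -0.14 without the 3 least correlated arrays. Without ERD 1 the deposited log ratios gave medians of -0.26 in ERD against STD and -0.22 in ERD against BLD, and 0.25 for Nr1d1 in ERD minus BLD. Without ERD 1 an offset of 1 gave a median of -0.16, -0.0084 for Clock and 0.34 for Nr1d1 in ERD minus BLD.

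Leaving out 1 array at a time, that median ran from -0.17 to 0.0028, Arntl in ERD minus STD from -0.20 to 0.0397, Nr1d2 in BLD minus STD from -0.14 to 0.0246, and in ERD minus BLD Clock from -0.0406 to 0.0683, Nr1d1 from -0.17 to 0.14 and Per3 from -0.11 to 0.0804. The pair correlations past the threshold numbered 3 in Cy5 alone (Clock with Nr1d1, and Nr1d2 with Per1 and with Per2), 2 with median centring (Per1 with Per2, Cry2 with Dbp), 2 without taking out the diet means (Clock with Nr1d1, Per1 with Nr1d2) and 0 in the other settings. The cause of these shifts was not tested. Quantile scaling of the average intensities leaves ratios as they are by construction. No paired analysis was possible because the labels give no replicate numbers shared between diets. Per3 and Cry1 lie near background, which limits what can be read from their probes. For Per3 the size of the differences depended on the background correction, and Cry1 was not tested.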
